A study of Mus musculus with 6 samples.

Results

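Bone morphogenetic proteins (BMPs) are held in check outside the cell by a set of binding proteins, and 9 genes of that kind were followed here in the mandibular arch of the mouse embryo: Chrdl1, Chrd, Nog, Grem1, Bmper, Fst, Fstl1, Twsg1 and Bambi. They were chosen by name, with earlier results of these data known. Every probe set that the platform annotation assigns to 1 of these symbols alone was taken. That gave 17 probe sets for the 9 genes, out of 45101 probe sets and 18194 named genes on the array. Bambi was kept with the others although its product is a membrane protein and not a secreted one.

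The arrays labelled Tbx1-/- came from embryos null for Tbx1, a T-box transcription factor of the pharyngeal apparatus, and those labelled Tbx1+/+ from embryos with both copies. Both genotypes are labelled as strain C57BL/6 at stage E10.5, with no treatment, and each has 3 Affymetrix Mouse Genome 430 2.0 arrays made from 100 ng of total RNA. Arches of 3 embryos were pooled by genotype, and the labels do not say whether each array had a pool of its own, so p-values below measure the spread between arrays, which may be technical. The comparison asks at what level these modulators read on the arrays and which of them shift in the absence of Tbx1.

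BMPs bind pairs of serine/threonine kinase receptors, which phosphorylate Smad proteins that enter the nucleus. Chordin family proteins, noggin and gremlin bind the ligand and keep it from the receptor, follistatins do so mainly for activins, and Bambi is a receptor-like protein without a kinase domain. In the mandibular arch, BMPs from the distal epithelium are known to help pattern the underlying mesenchyme, and Tbx1 is known to be needed in the core mesoderm that forms jaw muscle.

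Values are log2 expression, and 16074 genes and 29948 probe sets that exceeded 4 on 3 arrays or more were tested. The 1 probe set for Tbx1 read 7.59, 7.50 and 7.30 on the arrays labelled Tbx1-/-, against 6.93, 7.31 and 6.92 on those labelled Tbx1+/+. It was thus not lower where the gene is labelled as null, and since no source used here gives the disrupted part of the gene, it does not check the labels. Xist, the RNA of the inactive X chromosome, read 11.55, 5.60 and 10.60 on the Tbx1-/- arrays and 10.43, 11.00 and 11.53 on the Tbx1+/+ arrays, so the Tbx1-/- arrays did not all carry the same RNA. The arch mesenchyme markers Twist1, Prrx1, Pdgfra, Msx1, Dlx5 and Hand2 averaged 11.74 to 11.84 on the Tbx1-/- arrays and 11.77 to 11.79 on the Tbx1+/+ arrays. Tbx1-/- replicate 3 stood apart: on it 249 tested genes exceeded their mean over the other arrays by more than 1 log2 unit, 1.55% of all, against 6 to 32 genes on each other array. Of the 6 placental markers listed, 4 were on the array, and their mean was 10.82 on that array, against 4.48 and 4.81 on the other Tbx1-/- arrays and 4.25 to 4.43 on the Tbx1+/+ arrays. Results that rest on it are therefore given with and without it.

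Chrdl1 was the only one of the 9 genes past the threshold, and it was lower on the arrays labelled Tbx1-/-. With 1 probe set per gene, the one with the highest mean, limma was run with Benjamini-Hochberg adjustment over all genes. It called 1 of the 8 modulators tested at an adjusted p under 0.05, against 6 of 16074 genes, 0.0373%. Since the modulators were chosen with earlier results of these data known, such shares are a description and not a test. The set that stood for Chrdl1 had the highest mean only through the Tbx1+/+ arrays, as given below. No modulator was called higher, and at an unadjusted p under 0.05 the count was 2 lower (Chrdl1 and Bmper) and 0 higher, where 2.68% of all genes lay under that p in either direction. The groups did not overlap for 3 of the 8, Chrdl1, Fst and Twsg1, against 6.43% of all genes. The median difference over the 8 tested was -0.04 log2 and that over all genes -0.01. The median over the modulators was 0.01 log2 without Tbx1-/- replicate 3 and -0.14 log2 without Tbx1-/- replicate 1. Nog, the ninth, was not tested.

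**Figure D1:**
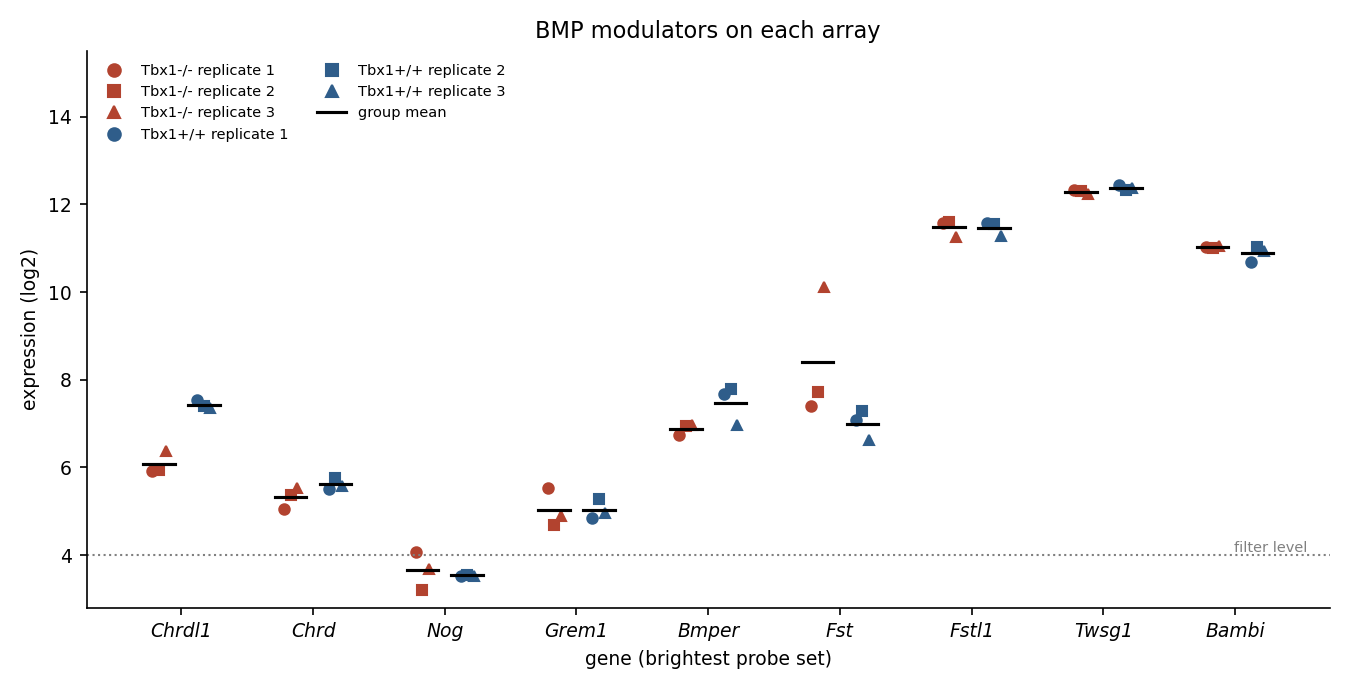
Log2 expression of the probe set with the highest mean of each of the 9 genes, 1 point per array, with Tbx1-/- arrays to the left of Tbx1+/+ arrays and a bar at each mean; the dotted line marks the level of 4 used as a filter. Chrdl1 lies between 5.91 and 6.38 on the Tbx1-/- arrays and between 7.36 and 7.55 on the Tbx1+/+ arrays, and the high Fst point at 10.13 is Tbx1-/- replicate 3.

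Chrdl1 encodes chordin-like 1, also called ventroptin or neuralin, a secreted protein with the cysteine-rich repeats by which chordin binds BMPs, and its gene is X-linked. Its probe set 1434201_at read 5.91, 5.95 and 6.38 on the Tbx1-/- arrays, against 7.55, 7.39 and 7.36 on the Tbx1+/+ arrays. All 3 Tbx1-/- arrays lay below all 3 Tbx1+/+ arrays, and all 6 were above the filter. The means were 6.08 ± 0.26 log2 on Tbx1-/- arrays and 7.43 ± 0.10 log2 on Tbx1+/+ arrays (SD, n = 3 each). The difference was -1.36 log2 (SE 0.15), a level 2.56-fold higher in Tbx1+/+, with an adjusted p of 0.0493 by limma. A two-sided exact permutation test over the 6 arrays gave p = 0.1, the smallest that 3 arrays against 3 allow. In this bulk tissue, fewer cells of a type and less RNA per cell cannot be told apart.

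The Chrdl1 call was close to the threshold, while the size of the difference changed little with the arrays used. With the replicate number as a block the adjusted p was 0.0590, and without Tbx1-/- replicate 3 the difference was -1.50 log2 with an adjusted p of 0.00347. Those 2 fits called 0.0622% and 0.137% of all genes. Leaving out another array ended the call, at adjusted p-values of 0.122 without Tbx1-/- replicate 1, 0.149 without Tbx1-/- replicate 2, and 0.423, 0.406 and 0.233 without Tbx1+/+ replicates 1, 2 and 3. Arrays of the same replicate number differed by -1.64, -1.44 and -0.98 log2, so Chrdl1 was lower in each such pair. Chrdl1 is X-linked, and Xist was high on Tbx1-/- replicates 1 and 3 and low on Tbx1-/- replicate 2. Eif2s3y, a Y-linked gene, read 10.15, 10.94 and 10.41 on the Tbx1-/- arrays, against 10.63, 10.20 and 10.03 on the Tbx1+/+ arrays. Kdm5d and Uty, also Y-linked, were above the filter level on all 6 arrays, so Xist alone does not give the sex of an array. The part of embryo sex in the Chrdl1 difference was not tested.

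The 4 probe sets of Chrdl1 all had a lower mean on the Tbx1-/- arrays, by amounts that differed. The set 1456722_at read 5.11, 5.63 and 5.56 on the Tbx1-/- arrays, against 6.19, 6.36 and 6.40 on the Tbx1+/+ arrays. Its groups did not overlap either, with a difference of -0.88 log2 (SE 0.16). The set 1421295_at read 4.33, 4.44 and 4.75 on the Tbx1-/- arrays, against 4.73, 4.90 and 4.89 on the Tbx1+/+ arrays, close to the filter level and with a difference of -0.33 log2 (SE 0.14). Here Tbx1-/- replicate 3 lay just above Tbx1+/+ replicate 1, so the groups overlapped. The set 1424945_at read 6.37, 6.23 and 6.36 on the Tbx1-/- arrays, against 6.29, 6.49 and 6.73 on the Tbx1+/+ arrays. Its difference was -0.18 log2 (SE 0.14), and in replicate 1 it was 0.08 log2 higher on the Tbx1-/- array. On the Tbx1-/- arrays the mean of 1424945_at was above that of 1434201_at, at 6.32 against 6.08. On the Tbx1+/+ arrays it was below, at 6.50 against 7.43. The choice of 1434201_at to stand for Chrdl1 thus rested on the group where that set was high. The mean over the 4 sets differed by -0.69 log2, with an adjusted p of 0.304.

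**Figure D2:**
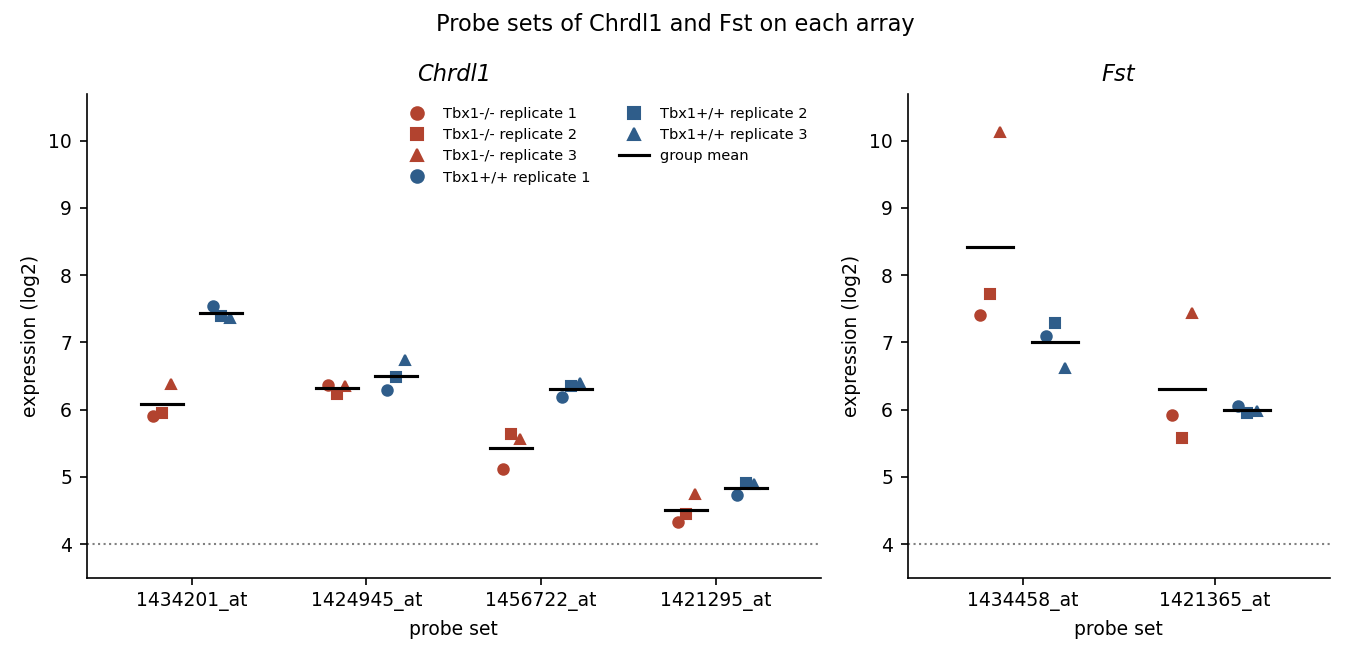
Log2 expression on each array for the 4 probe sets of Chrdl1 (left panel) and the 2 of Fst (right panel), with Tbx1-/- arrays to the left of Tbx1+/+ arrays, a symbol for each replicate number, a bar at each mean and a dotted line at the filter level of 4. The 4 Chrdl1 sets differ, from left to right, by -1.36, -0.18, -0.88 and -0.33 log2 between the genotypes, and both Fst sets peak on Tbx1-/- replicate 3, at 10.13 and 7.44.

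When all probe sets were tested apart, with adjustment over 29948 of them, limma called 0 of the 15 tested sets of the modulators, against 0.00668% of all sets. At an unadjusted p under 0.05 there were 5 of the 15, against 2.45% of all: Chrdl1 sets 1434201_at, 1456722_at and 1421295_at, the Bmper set and Fst set 1434458_at. The Chrdl1 set 1434201_at had an adjusted p of 0.0721 there, 0.0474 with the replicate block and 0.00834 without Tbx1-/- replicate 3. It was then the 1 set called, in fits that called 0.0467% and 0.0768% of all sets. The mean was lower on the Tbx1-/- arrays for 9 of the 15 sets, against 54.0% of all, and 4 did not overlap, against 6.16%. Those 4 were Chrdl1 sets 1434201_at and 1456722_at, Fst set 1434458_at and Twsg1 set 1450388_s_at.

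**Figure D3:**
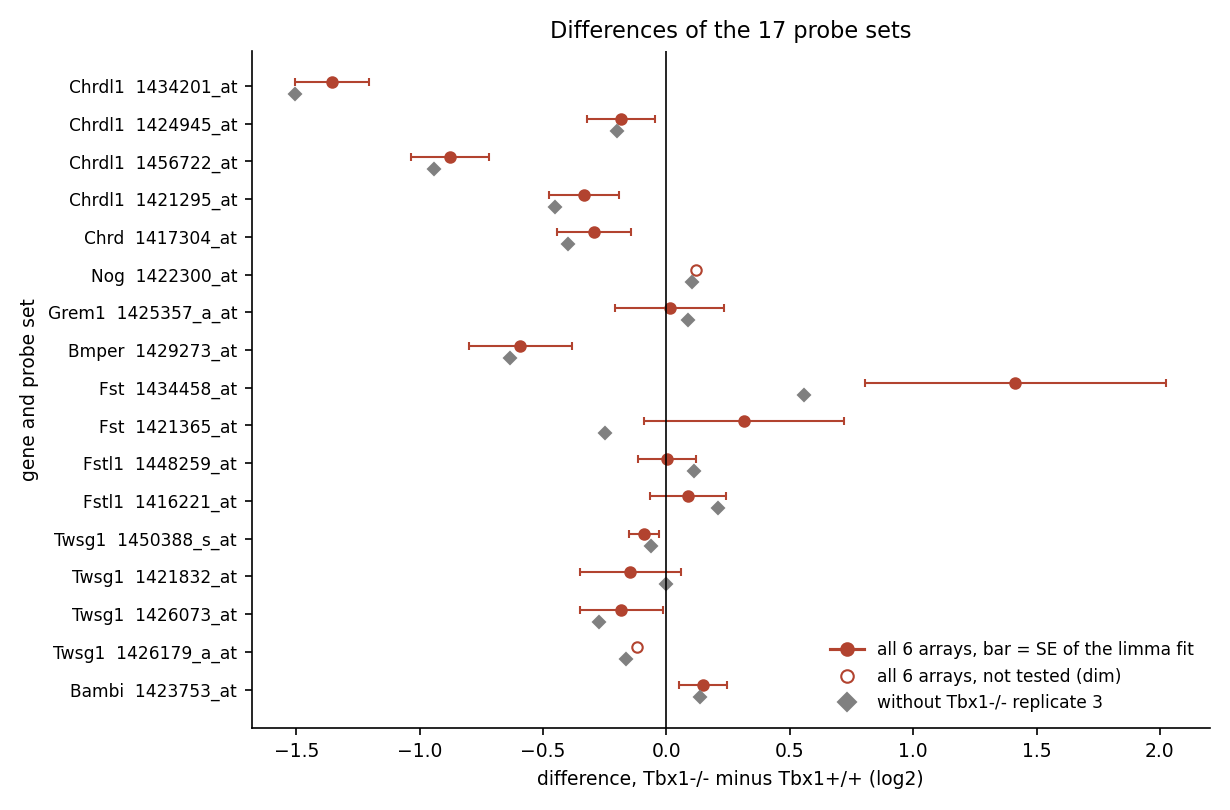
Difference in log2 expression, Tbx1-/- minus Tbx1+/+, for each of the 17 probe sets by gene: filled circles with standard errors are the 15 tested, open circles those not tested, and grey diamonds the difference without Tbx1-/- replicate 3. The 4 Chrdl1 sets lie left of 0, and the Fst set 1434458_at lies farthest right, at 1.41 with a standard error of 0.61.

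Core mesoderm markers moved with Chrdl1. Of the 7 listed, 6 were on the array, and their mean level was 5.96 to 6.19 log2 on the Tbx1-/- arrays and 7.20 to 7.32 log2 on the Tbx1+/+ arrays, with no overlap. Tcf21 and Myf5, transcription factors of head muscle precursors and of early myoblasts, were called lower by limma, and 1 of the 6, Isl1, had a higher mean. Tcf21 and Myf5 were also called with the replicate block and without Tbx1-/- replicate 3, and Lhx2 was called lower in the last fit alone of these 3. Hypoxia response genes had higher means on the Tbx1-/- arrays for 10 of 10, and their mean level was 10.54 to 11.20 log2 on the Tbx1-/- arrays and 9.60 to 9.82 log2 on the Tbx1+/+ arrays. Ndrg1, a gene known to be induced by low oxygen, differed by 1.90 log2 with an adjusted p of 0.0637 by limma, 0.0478 with the replicate block and 0.0270 without Tbx1-/- replicate 3. Adm, which encodes adrenomedullin, differed by 3.20 log2 and was called with the block (adjusted p of 0.0431), against 0.353 without it. It was highest on Tbx1-/- replicate 3, at 11.66 log2. Without that array Adm differed by 2.51 log2 and was not called (adjusted p of 0.0862 by limma). In the fit without Tbx1-/- replicate 3, Pfkp, Slc2a3 and Ddit4 were called higher beside Ndrg1, at adjusted p-values of 0.0235, 0.0235 and 0.0136. The part of either in the Chrdl1 difference was not tested.

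The 5 genes most like Chrdl1 over the 6 arrays, by Pearson's correlation with probe set 1434201_at among 669 genes spanning at least 1 log2 unit, were Lhx2 (0.973), Msc (0.973), Lrrn1 (0.971), Col8a2 (0.952) and Emx2 (0.951). Lhx2 and Msc, transcription factors of branchiomeric muscle precursors, are also among the core mesoderm markers above. Lhx2 read 4.27, 4.14 and 5.04 on the Tbx1-/- arrays, against 5.98, 6.38 and 6.22 on the Tbx1+/+ arrays. Lrrn1, a leucine-rich repeat membrane protein, read 7.95, 7.90 and 7.90 on the Tbx1-/- arrays, against 9.59, 9.32 and 9.49 on the Tbx1+/+ arrays. In each of the 5 genes the groups did not overlap, and the Tbx1-/- arrays were the lower ones. The 5 were picked for likeness to a probe set with that pattern, so this is not a separate result. These correlations describe 6 arrays in 2 separate groups, so they mostly carry the difference between the genotypes.

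**Figure D4:**
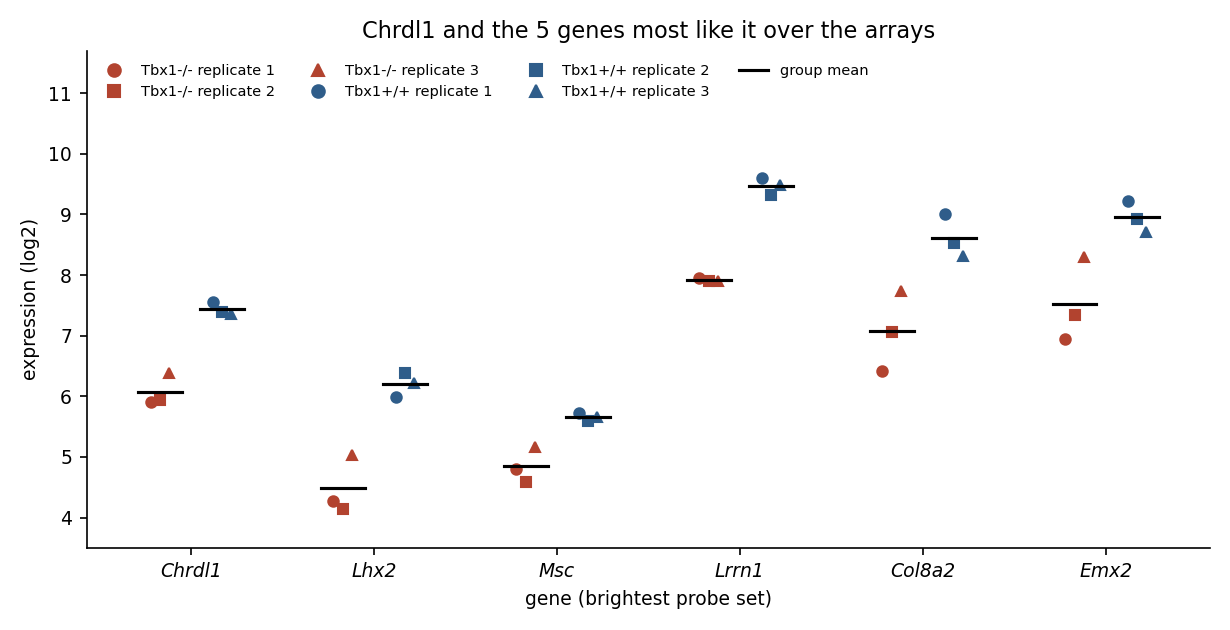
Log2 expression on each array for Chrdl1 and the 5 genes with the highest Pearson correlation to it, with Tbx1-/- arrays to the left of Tbx1+/+ arrays, a symbol for each replicate number and a bar at each mean. In all 6 genes the 3 Tbx1-/- arrays lie below the 3 Tbx1+/+ arrays.

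Chrd encodes chordin, the founding secreted antagonist of the family, which traps BMPs through its cysteine-rich repeats. It read 5.06, 5.37 and 5.53 on the Tbx1-/- arrays, against 5.51, 5.75 and 5.58 on the Tbx1+/+ arrays. Tbx1-/- replicate 3 lay within the range of the Tbx1+/+ arrays and the other 2 below it, and the difference of -0.29 log2 (SE 0.15) did not pass (adjusted p of 1.00 by limma). Chrd was above the filter on all 6 arrays.

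Nog encodes noggin, a secreted dimer that covers the receptor-binding surfaces of BMPs, and Grem1 encodes gremlin 1, a secreted antagonist of the DAN family. Nog read 4.07, 3.22 and 3.70 on the Tbx1-/- arrays, against 3.54, 3.56 and 3.53 on the Tbx1+/+ arrays. It exceeded 4 on 1 of 6 arrays and was not tested, and at this level the array does not separate low expression from background. Grem1 read 5.53, 4.70 and 4.89 on the Tbx1-/- arrays, against 4.86, 5.27 and 4.95 on the Tbx1+/+ arrays. The highest and the lowest Grem1 value were both on Tbx1-/- arrays, and the difference was 0.01 log2 (SE 0.22), with a sign that turned in some alternative fits.

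Bmper and Twsg1 encode secreted modulators that can restrain BMPs or, depending on context, help them signal: Bmper is the vertebrate crossveinless-2, and Twsg1, twisted gastrulation, binds both chordin and BMPs. Bmper read 6.74, 6.94 and 6.97 on the Tbx1-/- arrays, against 7.68, 7.79 and 6.96 on the Tbx1+/+ arrays. The Tbx1-/- arrays were alike, and Tbx1+/+ replicate 3 lay among them, apart from the other Tbx1+/+ arrays. The difference was -0.59 log2 (SE 0.21), which did not pass after adjustment (unadjusted p = 0.0214, adjusted p of 1.00 by limma). By replicate number it was -0.94, -0.84 and 0.01 log2.

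Twsg1 set 1450388_s_at read 12.32, 12.31 and 12.24 on the Tbx1-/- arrays, against 12.45, 12.33 and 12.36 on the Tbx1+/+ arrays. These groups did not overlap, by a gap that was small, and the difference of -0.09 log2 (SE 0.06) did not pass. The other tested sets, 1421832_at and 1426073_at, differed by -0.15 and -0.18 log2 with overlapping groups, and 1426179_a_at, above 4 on 0 arrays, was not tested. Over the 6 arrays the Twsg1 sets correlated with each other between -0.26 and 0.84, as a description. The sets 1450388_s_at and 1426179_a_at varied little over the arrays, while 1421832_at ran between 6.13 and 6.99 and 1426073_at between 5.88 and 6.58.

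Fst encodes follistatin, a secreted protein that binds activins tightly and some BMPs less so. Its set 1434458_at read 7.40, 7.72 and 10.13 on the Tbx1-/- arrays, against 7.09, 7.28 and 6.63 on the Tbx1+/+ arrays. All 3 Tbx1-/- arrays were above all 3 Tbx1+/+ arrays, but replicate 3 lay far above the other 2. The difference was 1.41 log2 (SE 0.62) over all arrays (adjusted p of 1.00 by limma) and 0.56 log2 without Tbx1-/- replicate 3, and neither passed. The second set, 1421365_at, read 5.92, 5.58 and 7.44 on the Tbx1-/- arrays, against 6.05, 5.95 and 5.98 on the Tbx1+/+ arrays. Its difference was 0.32 log2 (SE 0.40) over all arrays and -0.25 log2 without replicate 3, so the sets had opposite signs once that array was left out.

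The high Fst value stood on the array with high placental markers. Prl7a1, Prl4a1 and Cyp11a1 read 13.28, 13.19 and 11.80 log2 there, while Tpbpa read 5.01. The 4 decidua markers averaged 9.14 log2 on that array, 5.19 and 6.84 on Tbx1-/- replicates 1 and 2, and 4.53 to 5.46 on the Tbx1+/+ arrays. Prl8a2, Gzmd and Gzme read 10.00, 9.23 and 9.44 there. The other marker, Prf1, was not raised, at 7.89 against 8.24 and 8.05 on Tbx1-/- replicates 1 and 2. Of the 8 modulators tested Fst was the 1 that lay over 1 log2 unit above the other arrays there, at 10.13 against a mean of 7.22 on the others. Of 58 further pathway genes 3 did so: Chrdl2 at 7.98 against 4.30, Crim1 at 8.84 against 7.40 and Bmp8b at 6.77 against 5.73. The part of placental or decidual RNA in these values was not tested.

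Fstl1 encodes follistatin-like 1, a secreted glycoprotein related to follistatin that can bind BMP4. Its set 1448259_at read 11.57, 11.58 and 11.25 on the Tbx1-/- arrays, against 11.58, 11.55 and 11.28 on the Tbx1+/+ arrays. The groups overlapped almost fully, and replicate 3 was the lowest array in both genotypes. The second set, 1416221_at, read 11.24, 11.31 and 10.90 on the Tbx1-/- arrays, against 11.35, 11.06 and 10.78 on the Tbx1+/+ arrays. The differences were 0.002 log2 (SE 0.12) and 0.09 log2 (SE 0.16).

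Bambi, a pseudoreceptor that resembles a type I receptor and lacks its kinase, read 11.02, 11.01 and 11.05 on the Tbx1-/- arrays, against 10.67, 11.04 and 10.92 on the Tbx1+/+ arrays. The Tbx1-/- arrays were close together, and 2 of the 3 Tbx1+/+ arrays were below them. The difference was 0.15 log2 (SE 0.10), which did not pass (adjusted p of 1.00 by limma). Bambi, Fstl1 and Twsg1 were therefore above the filter level on all 6 arrays, with small differences. Chrdl1, Bmper, Fst, Chrd and Grem1 were above it on all 6 arrays as well, and Nog was the 1 gene at the filter level. Chrd, at 5.06 to 5.75, and Grem1, at 4.70 to 5.53, lay below the median of every array (6.08 to 6.15). No detection call was made, so whether values above the filter exceed background was not tested.

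The rest of the pathway was read from 7 gene lists, and limma called 0 genes in any of them. Among 16 other extracellular modulators, 14 were tested, with 7 higher and 7 lower means and a median of 0.00 log2, which was -0.04 log2 without Tbx1-/- replicate 3. At an unadjusted p under 0.05 there were 2, both lower, against 2.68% of all genes in either direction. Smoc2, a secreted calcium-binding matrix protein, read 7.18, 7.88 and 7.43 on the Tbx1-/- arrays, against 8.39, 8.58 and 7.65 on the Tbx1+/+ arrays, a difference of -0.71 log2 (SE 0.26). Its relative Smoc1, which in Xenopus inhibits BMP signalling, differed by -0.44 log2 (SE 0.17), and Vwc2, which encodes brorin, by -0.65 log2 (SE 0.30), near the filter level. Vwc2 was -0.40 log2 without Tbx1-/- replicate 3 and -0.31 log2 with values under 4 raised to 4. In all 3 the groups overlapped. With the mean over its probe sets Smoc2 differed by -0.55 log2 (SE 0.24, unadjusted p = 0.0527 by limma).

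Of the chordin proteases, Bmp1 was the 1 tested of 3, and it differed by -0.001 log2 (SE 0.12, unadjusted p = 0.991). Of 14 BMP ligands listed 10 were tested, 5 with a higher and 5 with a lower mean and 0 at an unadjusted p under 0.05. Bmp4, a ligand of the distal arch epithelium, read 9.17, 9.35 and 9.13 on the Tbx1-/- arrays, against 8.91, 9.56 and 9.13 on the Tbx1+/+ arrays, a difference of 0.01 log2 (SE 0.16), and was named after its values were seen. The 3 ligands with the smallest p were Gdf5 at -0.28 log2 (SE 0.18), Bmp8b at 0.38 log2 (SE 0.27) and Bmp2 at 0.27 log2 (SE 0.19). Without Tbx1-/- replicate 3 Bmp8b was 0.04 log2 and Bmp2 0.41 log2. With each array left out in turn Gdf5 ran between -0.41 and -0.13 log2 and Bmp2 between 0.14 and 0.45 log2. Of the activin and GDF ligands that follistatins bind, the 3 tested differed by -0.21 log2 (Inhba), 0.08 log2 (Gdf11) and 0.04 log2 (Inhbb), with standard errors of 0.24, 0.19 and 0.31 and 0 at an unadjusted p under 0.05. Without Tbx1-/- replicate 3 they were -0.14 log2 for Inhba, -0.03 log2 for Gdf11 and -0.36 log2 for Inhbb.

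All 12 receptors and co-receptors listed were tested, and 4 were at an unadjusted p under 0.05, 2 in each direction, against 2.68% of all genes. Acvrl1, a type I receptor known from endothelium, read 7.45, 7.22 and 7.27 on the Tbx1-/- arrays, against 6.94, 6.87 and 6.88 on the Tbx1+/+ arrays, a difference of 0.41 log2 (SE 0.11). The 4 endothelial markers Pecam1, Cdh5, Kdr and Tek averaged 7.99 to 8.15 log2 on the Tbx1-/- arrays and 7.91 to 8.01 log2 on the Tbx1+/+ arrays, and their part in that difference was not tested. Bmpr1b, a type I BMP receptor, read 9.22, 9.23 and 9.36 on the Tbx1-/- arrays, against 9.70, 9.46 and 9.66 on the Tbx1+/+ arrays, a difference of -0.34 log2 (SE 0.10). Rgmb, a BMP co-receptor, differed by -0.40 log2 (SE 0.14). These values are from the brightest probe set of each gene. With the mean over probe sets Bmpr1b differed by -0.26 log2 (SE 0.12, unadjusted p = 0.0650 by limma). Rgmb then differed by -0.30 log2 (SE 0.09) and Acvrl1 by 0.44 log2 (SE 0.11). The groups did not overlap for 5 of the 12, against the 6.43% of all genes above, and the median over the 12 was -0.05 log2, and 0.03 log2 without Tbx1-/- replicate 3.

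The 10 genes listed as BMP targets all had a higher mean on the Tbx1-/- arrays, against 47.3% of all genes, and limma called 0 of them. Their median difference was 0.12 log2, and 0.19 log2 without Tbx1-/- replicate 3. Of the 10, 3 were at an unadjusted p under 0.05, against 2.68% of all genes in either direction. Smad6, an inhibitory Smad, read 7.98, 7.99 and 7.85 on the Tbx1-/- arrays, against 7.66, 7.61 and 7.57 on the Tbx1+/+ arrays, a difference of 0.33 log2 (SE 0.10). Smad7, the other inhibitory Smad, differed by 0.27 log2 (SE 0.09), also without overlap, and Id1, an inhibitor of basic helix-loop-helix factors, by 0.32 log2 (SE 0.14) with overlap. Msx1 and Hand2, transcription factors of the distal arch, differed by 0.08 log2 (SE 0.08) and 0.12 log2 (SE 0.11), and were named after their values were seen. Without Tbx1+/+ replicate 2 the count was 9 of 10. Msx1 and Hand2 also stand among the mesenchyme markers, and the 10 genes share the same 6 arrays, so they are not independent of each other. The 4 epithelial markers Epcam, Cdh1, Krt8 and Krt18 also had higher means on the Tbx1-/- arrays, averaging 11.00 to 11.77 log2 there and 10.72 to 10.95 log2 on the Tbx1+/+ arrays, and the 10 hypoxia genes had higher means as given above. Krt8 and Krt18 were highest on Tbx1-/- replicate 3, at 12.69 and 13.50 log2. The part of either in the target gene means was not tested. Among the 10 Smads and Smad regulators, which share Smad6 and Smad7 with that list, the other 8 differed by at most 0.10 log2 either way, and the median was -0.01 log2, and 0.04 log2 without Tbx1-/- replicate 3. Smad5 had the third smallest p there, at 0.10 log2 (SE 0.08).

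**Figure D5:**
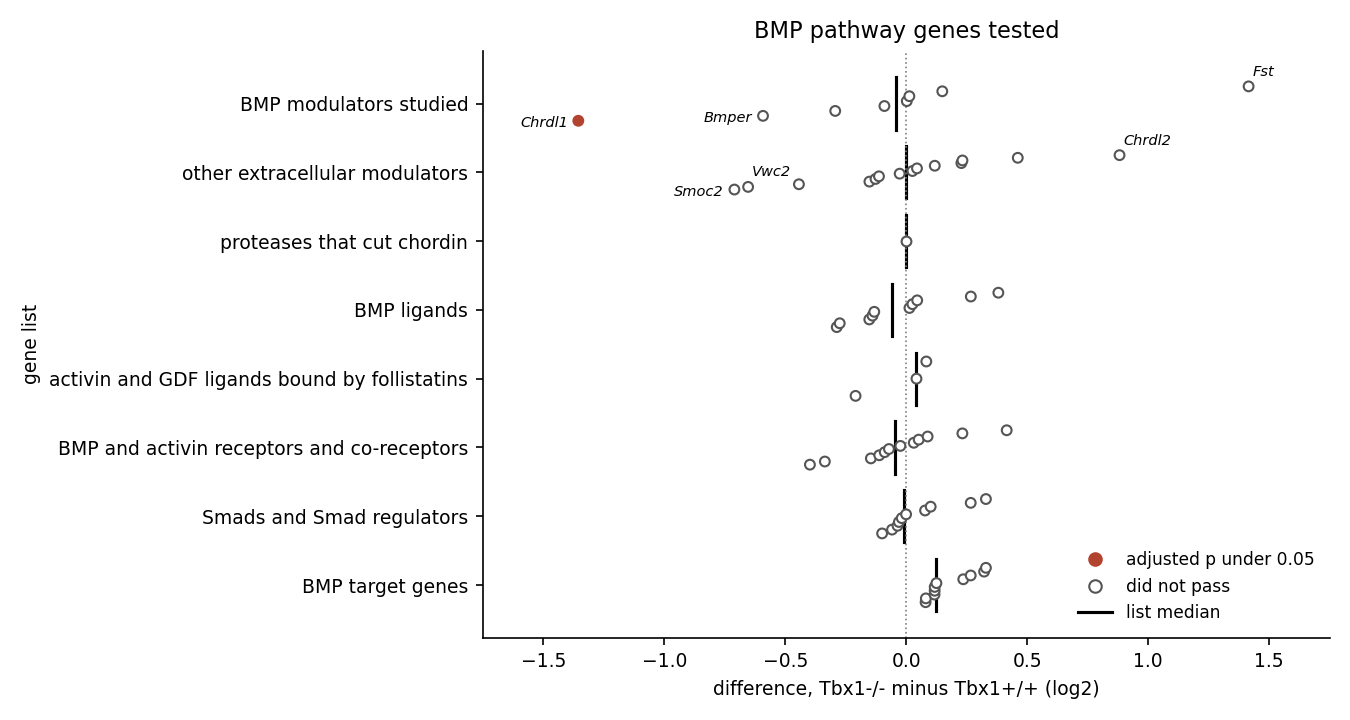
Difference in log2 expression, Tbx1-/- minus Tbx1+/+, for each tested gene of the 9 modulators (top row) and of 7 pathway lists, with a vertical bar at each list's median. Chrdl1 at -1.36 is the 1 gene with an adjusted p under 0.05, and the 10 BMP target genes lie between 0.08 and 0.33.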

How the data were processed

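Labelled cDNA amplified from total RNA of E10.5 mandibular arches was hybridized to Affymetrix arrays, 3 per genotype. The authors' deposited values are log2 intensities per probe set, made with GCRMA per the submitters' processing notes, whose version is not stated. Differences near background are uncertain, and scanner files were not used here. The platform annotation gave 1 symbol for 34958 probe sets, several for 932 and none for 9211. Of several sets for a gene the one brightest on average stood for it, and genes above 4 on 3 arrays or more were tested (16074, with 2120 set aside). Array medians were 6.08 to 6.15, and precision is limited by having 3 arrays per genotype. Arrays of a genotype differed from each other with an SD of 0.247 to 0.411, so none was a copy.

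Genotypes were compared with limma 3.58.1 in R 4.3.3 (lmFit and eBayes with an intensity trend), with Benjamini-Hochberg adjustment over all genes or all probe sets and a threshold of 0.05, after testing on simulated data. Figures were drawn with matplotlib 3.10.9. The named genes were all modulators, up to 3 tested genes per list by smallest p, and the 5 genes most like Chrdl1. The modulators, the 7 pathway lists and the 11 marker lists were chosen with earlier results of these data known. Alternatives were the filter, the probe set rule, a floor, median centring, quantile normalization, no trend, array weights, a replicate block and each array left out. Replicates carry numbers 1 to 3 in each genotype, and no label says what they share. Over tested genes, same-numbered arrays deviated together from their genotype's mean (Pearson's r of 0.261, 0.130 and 0.135), and differently numbered ones less so (-0.195 to 0.065), so the block is reported where it changes a call. Over all probe sets with 1 symbol the order did not hold throughout. There the arrays numbered 2 correlated at 0.0822, below the 0.107 of Tbx1-/- replicate 3 with Tbx1+/+ replicate 2. The files name no genome build, so no coordinates are printed.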

Additional observations from a re-analysis of the deposited data

How the results depend on the processing

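Chrdl1 was lower on the Tbx1-/- arrays under every alternative run, and its side of the threshold changed. Its difference was -1.36 log2 with an adjusted p of 0.0563 with no filter, 0.0572 with a floor of 4 on all values, 0.0903 with no intensity trend and 0.0590 with the replicate block, and -0.69 log2 with the mean over probe sets. Those settings called 0 modulators lower. With 1 array left out the difference ran from -1.50 to -1.27 log2, and the count of modulators called lower from 0 to 1. Dropping the filter adds genes to the adjustment, and the cause of the other changes was not tested. The count of modulator probe sets called lower was 1, where the main count was 0, with the filter above 6, with array weights and with the replicate block, and 0 to 1 with an array left out. The replicate block changed no other call among the modulators and the pathway genes; of the marker genes it added Ndrg1 and Adm, and over all genes it called 4 higher and 6 lower, against 2 and 4 without it. No modulator was called higher, and no pathway gene called, under any alternative. Of the other single values, which include the Chrdl1 probe sets, 382 kept their direction and side, 20 changed sign and 4 came to pass the threshold.

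Signs turned for genes whose differences were near 0. With array weights Grem1 was -0.16, Bmp1 0.055, Gdf11 -0.10 and Inhbb -0.27 log2; with the mean over probe sets Bmp1 was 0.015 and Smad5 -0.017; with centred arrays Bmp1 was 0.00077. With 1 array left out Grem1 ran from -0.23 to 0.18, Fstl1 from -0.094 to 0.11, Bmp1 from -0.065 to 0.11, Gdf11 from -0.073 to 0.24 and Inhbb from -0.36 to 0.29 log2. Nog and the Twsg1 set 1426179_a_at lay at or below the filter level, where the array gives no direction.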
